A study of Mus musculus with 2 samples.

Results

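The gene-desert CHOP peaks are the regions enriched in a CHOP immunoprecipitate of tunicamycin-treated mouse liver that lie far from any protein-coding start. Distance to the ends of genes was not measured. A peak was taken if its summit, the position of its highest read pileup, was outside every protein-coding transcript of GENCODE M21 and more than 100 kb from the nearest protein-coding start. This held for 1171 of the 14157 peaks (8.27%, 95% Wilson interval 7.83 to 8.74%). CHOP was mapped by chromatin immunoprecipitation and single-end sequencing in livers of WT mice. Tunicamycin had been injected intraperitoneally 8 h earlier at 1 mg/kg. The immunoprecipitate was 1 library made from the combined livers of 3 mice, and the peaks were called against 1 input library of the same treatment. Strain, age and sex are not given in the labels used here. There was no replicate, no untreated liver and no CHOP-deficient liver, so no test between conditions could be made and every value below describes 1 pool. Whether a given peak is a site where CHOP binds was not tested. Intervals, given at 95%, cover counting error only.

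CHOP, the product of Ddit3, is a transcription factor of the C/EBP family that is made when unfolded proteins accumulate in the endoplasmic reticulum, which tunicamycin brings about by blocking N-linked glycosylation. It binds DNA as a dimer with another C/EBP protein or with ATF4. Dimers of a C/EBP-family protein with an ATF protein recognise composite elements that join a C/EBP site to an ATF site. Gene deserts are long stretches with no protein-coding gene. They are known to hold distant enhancers of developmental regulators, noncoding RNA genes and a high load of repeated sequence.

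The desert peaks fell into classes that differed in width, in strength and in the sequence under the summit. Selected summits are shown here as 101 bp windows of RefSeq's GRCm38.p6 sequence, the assembly behind mm10, read on the plus strand and centred on the summit. Each is labelled by the nearest protein-coding gene, which is a place name and not a statement of regulation. All windows shown in the first set have C at the open position, N, of the element. Wide peaks with another letter there, such as that nearest to Ppp1r3b at 17.9-fold, are left out of the set. The first set shows wide peaks, over 340 bp, with the composite element TGATGNAA on either strand in capitals:
Mrm1 chr11:84683057-84683157: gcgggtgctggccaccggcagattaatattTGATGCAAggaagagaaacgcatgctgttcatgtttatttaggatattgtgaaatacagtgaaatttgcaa
Gadd45g chr13:52022006-52022106: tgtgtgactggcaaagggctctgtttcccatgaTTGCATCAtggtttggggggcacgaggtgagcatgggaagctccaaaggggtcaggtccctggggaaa
Sall1 chr8:89279991-89280091: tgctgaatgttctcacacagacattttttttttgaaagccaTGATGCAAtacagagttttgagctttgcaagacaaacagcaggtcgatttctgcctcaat
Adgrl2 chr3:149987970-149988070: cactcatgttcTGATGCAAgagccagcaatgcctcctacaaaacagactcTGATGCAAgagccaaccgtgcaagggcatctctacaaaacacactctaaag
Myc chr15:62569559-62569659: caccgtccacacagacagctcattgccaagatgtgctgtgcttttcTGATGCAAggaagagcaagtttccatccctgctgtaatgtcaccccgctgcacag
Antxr2 chr5:97834900-97835000: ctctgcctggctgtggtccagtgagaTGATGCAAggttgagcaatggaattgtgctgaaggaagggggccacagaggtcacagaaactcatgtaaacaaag
Plxna2 chr1:194461181-194461281: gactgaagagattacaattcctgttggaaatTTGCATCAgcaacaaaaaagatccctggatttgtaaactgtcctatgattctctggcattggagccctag
Cdyl chr13:35463369-35463469: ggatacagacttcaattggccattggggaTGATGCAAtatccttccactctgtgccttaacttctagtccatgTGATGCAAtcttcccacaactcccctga
The second set shows wide peaks with no composite element whose capitals mark the C/EBP core TTNNGNAA:
Jade1 chr3:41408436-41408536: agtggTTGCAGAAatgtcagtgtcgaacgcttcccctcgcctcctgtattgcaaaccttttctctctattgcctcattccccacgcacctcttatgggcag
Ankrd50 chr3:38128637-38128737: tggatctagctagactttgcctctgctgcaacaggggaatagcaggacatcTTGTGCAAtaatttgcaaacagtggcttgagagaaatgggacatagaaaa
Foxo1 chr3:52502296-52502396: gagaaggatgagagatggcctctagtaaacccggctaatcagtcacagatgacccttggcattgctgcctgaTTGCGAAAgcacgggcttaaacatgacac
The third set shows summits in arrays of a pentamer, with its units GGAAT or ATTCC in capitals:
Pou4f1 chr14:104336942-104337042: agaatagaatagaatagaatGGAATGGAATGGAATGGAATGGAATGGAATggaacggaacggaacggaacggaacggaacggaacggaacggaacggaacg
Prickle1 chr15:93827084-93827184: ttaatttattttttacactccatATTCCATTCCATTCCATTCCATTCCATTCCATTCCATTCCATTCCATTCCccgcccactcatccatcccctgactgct
Arid1b chr17:4626499-4626599: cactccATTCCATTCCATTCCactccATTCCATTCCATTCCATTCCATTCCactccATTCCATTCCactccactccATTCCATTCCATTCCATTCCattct
The fourth set shows the summit of a peak near Mir148a and that of a peak at the RefSeq start of Zswim6, with no capitals:
Nfe2l3 chr6:51270637-51270737: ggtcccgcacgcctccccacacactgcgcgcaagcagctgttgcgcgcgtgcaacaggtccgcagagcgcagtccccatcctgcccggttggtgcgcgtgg
Smim15 chr13:107889966-107890066: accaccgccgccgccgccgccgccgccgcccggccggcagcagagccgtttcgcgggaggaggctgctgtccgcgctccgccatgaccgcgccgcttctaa

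CHOP peaks were sparse in the deserts. The sequence that meets the distance rule covers 861 Mb, or 32.5% of the non-N genome. It held 1.36 peaks per Mb (exact Poisson interval 1.28 to 1.44), against 3.27 per Mb (3.13 to 3.42) in intergenic sequence 10 to 100 kb from a start and 5.35 per Mb over the whole genome. Within the deserts the density was 1.84 per Mb at 100 to 200 kb, 1.34 at 200 to 500 kb, 0.920 at 500 to 1000 kb and 0.898 beyond 1000 kb. The intervals of the last 2 rings overlap, at 0.786 to 1.07 and 0.701 to 1.13, and the earlier rings lie apart from each other and above them. The median desert summit was 244 kb from the nearest start, and the range was 100043 bp to 2618 kb. The density was between 1.16 and 2.12 per Mb on chromosome X and the autosomes, and it was 0.168 per Mb on chromosome Y, where 10 peaks lay in 59.5 Mb.

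The word desert holds for protein-coding genes only. Of the 1171 peaks, 972 (83.0%) were inside or within 100 kb of the start of some annotated gene when noncoding genes and pseudogenes were counted, and 175 (14.9%) lay inside a noncoding transcript. Against RefSeq's protein-coding genes, 26 summits were inside a gene, 40 were within 100 kb of a start and 10 of those were within 1 kb, and 1122 peaks met the rule in both annotations. Just inside the limit were peaks nearest to Epha5 (6.45-fold), Bcor (6.0-fold) and Ly96 (12.0-fold). Just outside it were peaks nearest to Gm8882 (48.7-fold), Bmp7 (6.14-fold) and Topaz1 (59.2-fold).

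Most desert peaks were weak and narrow. Fold is the authors' ratio of the summit pileup to the local background, with 1 added to each before the division, and its median was 6.14 (order-statistic interval 6.0 to 6.33) in the deserts, against 6.75 (6.75 to 6.76) at 10 to 100 kb and 6.75 (6.70 to 6.75) over all peaks. The median desert summit rested on 9 reads, against 10 at 10 to 100 kb and 11 over all peaks. Summits with 10 reads or fewer made up 63.9% of the desert peaks (61.1 to 66.6%), against 56.0% at 10 to 100 kb and 45.8% of all. The median width was 189 bp in the deserts, against 237 bp at 10 to 100 kb and 285 bp over all peaks, and 542 desert peaks (46.3%) were under 180 bp, close to the smallest width in the list, 172 bp. The local background stood at the genome-wide floor of 0.333 reads in 45.6% of desert peaks, so that 1 read more or less moved their fold by a large step.

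A fold of 20 or more was called in 75 desert peaks (6.40%, Wilson interval 5.14 to 7.95%), beside 6.01% of all peaks and 8.02% at 10 to 100 kb. Strong peaks were thus at a share near the background of the list. They were not spread evenly over the widths: 60 of the 75 were 290 to 340 bp wide, 13 were wider and 2 were narrower. This was not particular to the deserts. Of the peaks at 20-fold or more, 102 of 156 at 10 to 100 kb and 350 of 776 in the rest of the list were 290 to 340 bp wide. Of the 75, 59 had a masked summit, 10 lay in a pentamer array and 7 held the composite element, which 6.28% of all peaks hold.

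**Figure D1:**
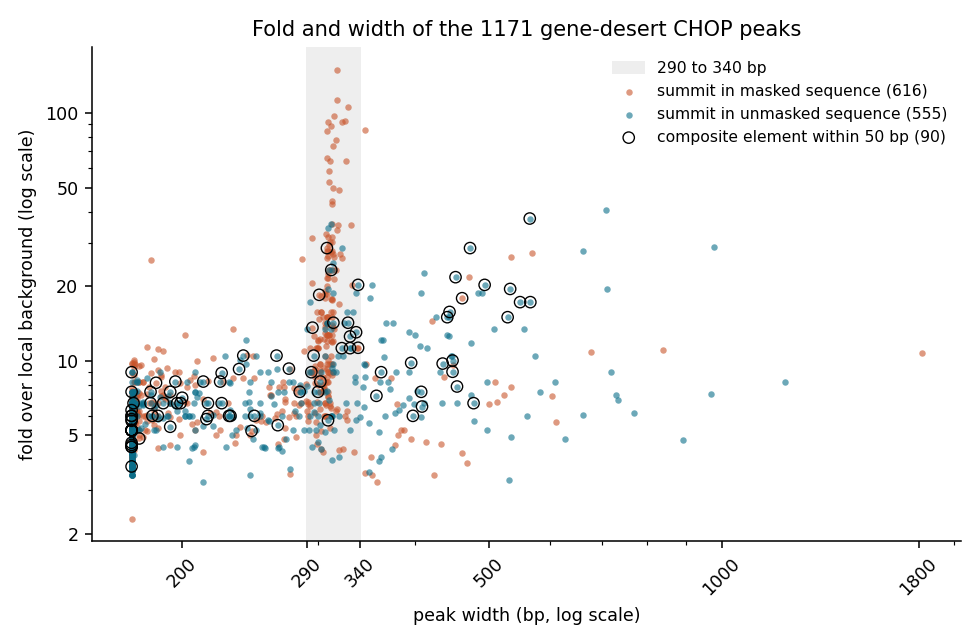
Fold over local background against peak width for the 1171 desert peaks, both on log scales, coloured by whether the summit base is masked as repetitive in the reference. The grey band marks 290 to 340 bp and open circles mark the 90 peaks with a composite element: of the 22 points at 40-fold or more, 20 stand in the band and 21 are masked, while the circled points continue to larger widths at up to 37.5-fold.

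Compact peaks, 290 to 340 bp wide, numbered 255 (21.8%, 19.5 to 24.2%), beside 17.3% of all peaks and 21.3% at 10 to 100 kb. Their width had a median of 309 bp and quartiles of 303 and 314 bp. Their median fold was 11.2 (9.75 to 12.6), on 16 reads. The summit was masked in 184 (72.2%), against 67.5% of compact peaks at 10 to 100 kb and 48.5% of compact peaks in the rest of the list. The compact share was 4.68% of the 235 desert peaks under 5-fold, 14.4% at 5 to 10-fold, 59.4% at 10 to 20-fold and 75.5% at 20 to 40-fold. At 40-fold or more it was 20 of 22 peaks (90.9%, 72.2 to 97.5%). Of those 22 peaks, 21 had a masked summit and 6 lay in a pentamer array. None held the composite element, a count of 0 of 22 that allows a share of up to 13.6%.

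**Figure D2:**
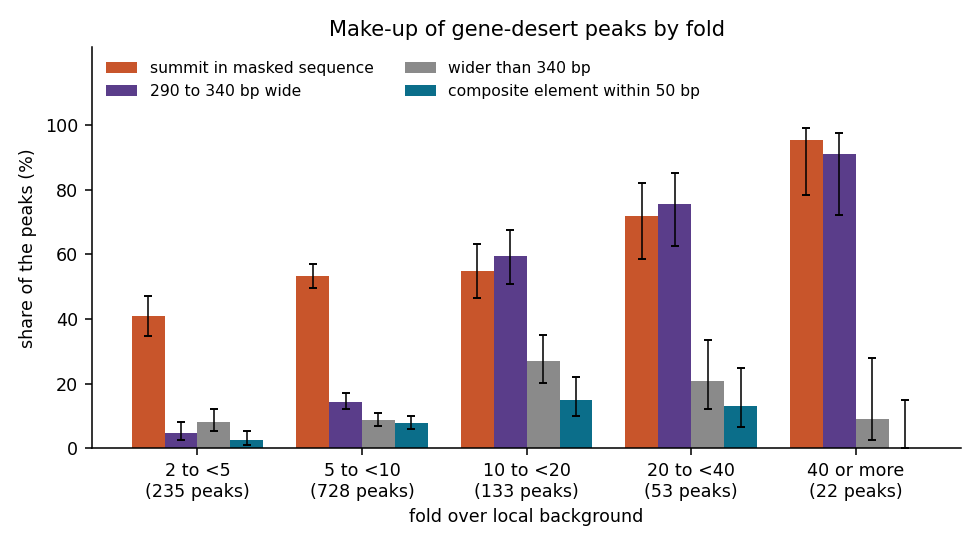
Share of desert peaks, by fold over local background, whose summit is masked, that are 290 to 340 bp wide, that are wider than 340 bp, and that hold the composite element, with Wilson intervals. The masked share was 40.9% at 2 to 5-fold and 95.5% at 40-fold or more, the compact share was 4.68% and 90.9% in the same classes, and the composite share was highest, 15%, at 10 to 20-fold.

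The 10 desert peaks of highest fold all had masked summits. The strongest lay 463 kb upstream of Slc35b3, which encodes a Golgi transporter of the sulfate donor PAPS. It had 198 reads and a fold of 149 (exact Poisson interval 129 to 171). The next lay 524 kb from Tmpo, a lamina-associated protein gene, at 112-fold (95.3 to 132) on 149 reads. The peak nearest to Rpia, a pentose phosphate pathway gene, had 93.0-fold (77.4 to 111). It was 1276 kb from that gene, within 100 kb of immunoglobulin kappa segments and 30 bp from the start of Rn7s6, annotated as a 7S RNA gene. Others of the 10 were nearest to Intu (92.2-fold), 4932411N23Rik (88.8-fold) and Tmem164 (84.7-fold). Pentamer arrays were under the peaks nearest to Pou4f1 (106-fold, 89.1 to 125), Prickle1 (97-fold), Gm17521 (91.5-fold) and 5730522E02Rik (85.5-fold). Apart from the last, which was 345 bp wide, the widths of the 10 ran from 308 to 328 bp.

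Sequence recurred between desert peaks. By alignment, 352 desert peaks (30.1%, 27.5 to 32.7%) shared at least 100 bp at 80% identity with another desert peak. Peaks outside the deserts were not aligned, so whether this share is particular to the deserts was not tested. Groups are chains of such links, and the members of a group need not all align with each other. The largest linked group held 215 peaks on 21 chromosomes, of which 193 were masked, 49 were compact and 10 were at 20-fold or more. A group of 10 peaks held 8 of the pentamer arrays, and its median fold was 30.7 with a highest of 106. In the deserts 15 peaks (1.28%) had at least 5 pentamer units at the summit, beside 10 (0.514%) at 10 to 100 kb and 31 (0.219%) of all peaks.

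Masking and repetition ran through the desert peaks more widely. The summit was masked in 616 (52.6%, 49.7 to 55.5%), against 41.8% at 10 to 100 kb and 26.4% of all peaks, and 43.5% of the desert sequence itself is masked. In 227 peaks (19.4%, 17.2 to 21.7%) over 50% of the 32-base words at the summit occurred more than once in the genome, against 10.3% at 10 to 100 kb and 6.50% of all peaks. The part of masked or repeated sequence in the fold of the compact peaks was not tested.

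The composite element TGATGNAA was within 50 bp of the summit in 90 desert peaks (7.69%, 6.29 to 9.35%), beside 6.28% of all peaks, 8.68% at 10 to 100 kb and 1.89% of peaks within 1 kb of a start. Windows 500 bp to each side of the desert summits held it in 1.79% (1.33 to 2.42%). The more general C/EBP core TTNNGNAA was at 244 desert summits (20.8%, 18.6 to 23.3%), below the 23.7% of side windows. A window that holds both motifs counts for each, and their matches can overlap. The stricter core TTGCNNAA was at 74 desert summits (6.32%) and 4.53% of side windows, and the C/EBP palindrome TTGCGCAA was at 1. AP-1 heptamers, TGAGTCA or TGACTCA, were at 18 desert summits (1.54%, 0.975 to 2.42%), against 3.75% at 10 to 100 kb and 2.03% of all peaks. The GC box GGGCGG, found at 45.4% of peaks within 1 kb of a start, was at 53 desert summits (4.53%).

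Among the desert peaks, wide ones carried the composite element most often. The class over 340 bp was set after the values were seen. It held 132 desert peaks, with a median fold of 8.25 (7.5 to 9.60) on 13 reads, and 27.3% of their summits were masked. The element was at 22 of these summits (16.7%, 11.3 to 23.9%) and at 0 of the 264 side windows, which allows a share of up to 1.14%. Wide peaks at 10 to 100 kb held it at 15.5% (11.9 to 19.8%), an overlapping interval. In the rest of the list as a whole, wide peaks held it at 5.54% (4.90 to 6.26%), beside 6.15% at any width. The element was at 17 compact desert summits (6.67%, 4.20 to 10.4%), against 7 of 510 side windows (1.37%, 0.666 to 2.81%). It was at 51 of the 784 narrower summits (6.51%, 4.98 to 8.45%), against 35 of 1568 side windows (2.23%, 1.61 to 3.09%). In each of the 3 classes the summit share was thus above that of the side windows, with intervals apart. With C at the open position, TGATGCAA was also the 8-base word most raised over the side windows among wide peaks, at 16 of 132 summits (12.1%, 7.60 to 18.8%). The remaining 6 wide matches had A in 5 peaks and T in 1.

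Within each width class the element was at a larger share of unmasked than of masked summits. Among wide peaks the element was at 1 of 36 masked and 21 of 96 unmasked summits (21.9%, 14.8 to 31.1%). Among compact peaks it was at 5 of 184 masked and 12 of 71 unmasked summits (16.9%, 9.94 to 27.3%), and among narrower peaks at 10 of 396 masked and 41 of 388 unmasked summits (10.6%, 7.89 to 14.0%). The intervals of unmasked wide and compact summits overlap, as do those of unmasked compact and narrower summits.

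**Figure D3:**
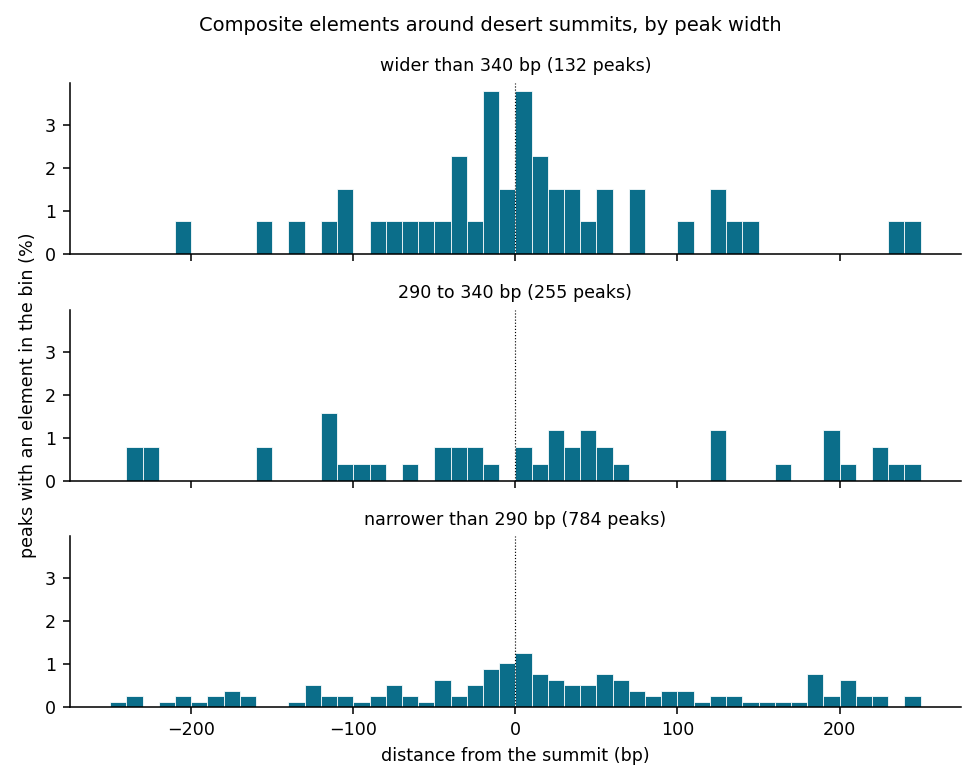
Share of desert peaks with a composite element in each 10 bp bin around the summit, for peaks wider than 340 bp, 290 to 340 bp and narrower than 290 bp. Matches in wide peaks gather around the summit, where the highest bins reach 3.79%, and of the peaks with an element within 250 bp its nearest match was within 50 bp in 22 of 36 wide, 18 of 40 compact and 54 of 126 narrower peaks. These counts go by the distance of the match. The text counts matches that lie wholly within 50 bp of the summit, at 17 compact and 51 narrower summits.

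The element was rarer in the far deserts. It was at 46 of 467 summits at 100 to 200 kb (9.85%, 7.47 to 12.9%), at 39 of 466 at 200 to 500 kb (8.37%, 6.18 to 11.2%) and at 5 of 238 beyond 500 kb (2.1%, 0.901 to 4.82%). In side windows it was at 1.07%, 2.58% and 1.68% in the same rings, and the side-window value beyond 500 kb lies within the interval of those summits. Among wide peaks alone the element was at 10 of 62, 10 of 50 and 2 of 20 summits (16.1%, 20% and 10%), with overlapping intervals, and at 0 of 40 side windows beyond 500 kb. Those 2 far wide peaks are nearest to Myc and Adgrl2. The masked share was 48.4%, 50.9% and 64.3% in the 3 rings, and among unmasked summits alone the element was at 39 of 241 (16.2%), 33 of 229 (14.4%) and 2 of 85 (2.35%, 0.648 to 8.18%). The 5 desert peaks farthest from any start, nearest to Pcdh9 (2 peaks, 2618 and 2313 kb), Cntnap5b, Aga and Olfm4, had folds of 3.75 to 9.0 on 4 to 11 reads, and none held the element.

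**Figure D4:**
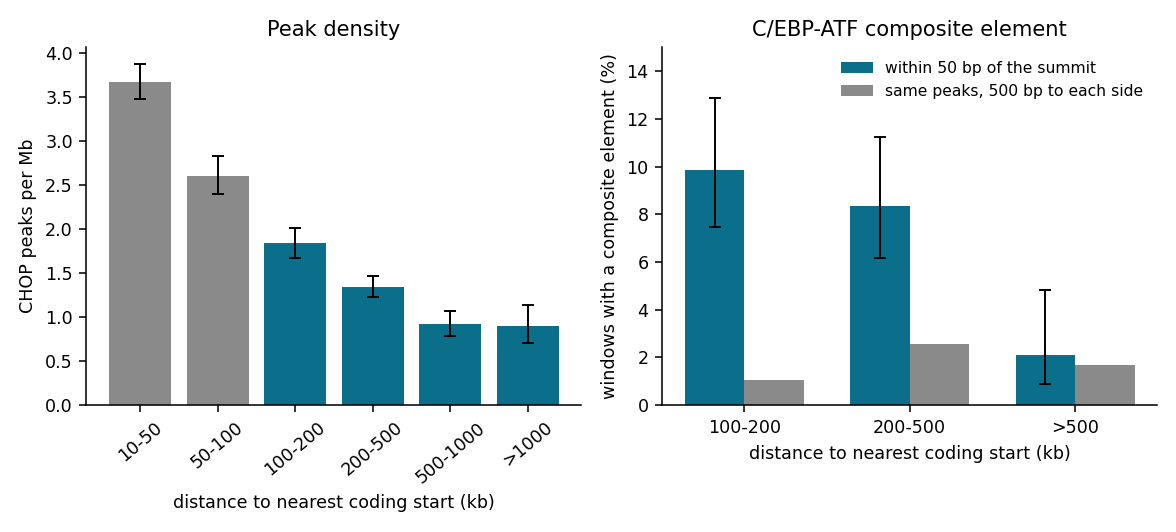
Left, CHOP peaks per Mb of intergenic sequence by distance to the nearest protein-coding start, with grey bars below 100 kb, blue bars in the deserts and exact Poisson intervals. Right, share of desert peaks with a composite element within 50 bp of the summit (blue, Wilson intervals) and in windows 500 bp to each side (grey): the density was 1.84 per Mb at 100 to 200 kb and 0.898 beyond 1000 kb, and the element was at 9.85%, 8.37% and 2.1% of summits.

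Several composite summits were strong and wide. The peak of highest fold with the element lay 136 kb from Mrm1, a mitochondrial rRNA methyltransferase gene, at chr11:84682839-84683402, with 49 reads and 37.5-fold (27.9 to 49.3). Gadd45g, a stress-induced gene of growth arrest, was the nearest to a 28.5-fold peak (20.3 to 39.0) of 37 reads at 175 kb, whose summit lay 129 bp from a noncoding transcript start. The window of Sall1, which encodes a zinc-finger transcription factor, had 21.7-fold (14.7 to 31.1) at 236 kb. Slc24a2 and Aff2 were nearest to compact, masked peaks with the element at 28.5-fold and 23.2-fold. Names after these 5 were chosen once the values were known. Adgrl2, an adhesion receptor, was nearest to a 20.2-fold peak at 997 kb whose window holds TGATGCAA 2 times, as does that of Cdyl, a chromatin reader, at 15-fold and 196 kb. Antxr2, an anthrax toxin receptor, stood at 17.2-fold, Plxna2, a semaphorin receptor, at 15.7-fold and Dio2, a deiodinase of thyroid hormone, at 15-fold. The intervals of Cdyl, Antxr2, Plxna2 and Dio2 overlap one another.

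Wide peaks without the element, named here after their values were seen, also reached high folds. The strongest unmasked one lay 147 kb upstream of Jade1, which encodes a subunit of a histone acetyltransferase complex, with 53 reads and 40.5-fold (30.5 to 52.7). Ankrd50 was nearest to a 27.7-fold peak at 327 kb and Foxo1, a regulator of gluconeogenesis, to a 22.6-fold peak (15.9 to 31.2) at 234 kb. All 3 windows hold a C/EBP core. Trp63 (19.5-fold, 139 kb) and Dusp6 (18.7-fold, 197 kb) had cores as well, and no listed C/EBP motif was found in the windows of the unmasked peaks nearest to Nfe2l3 (28.9-fold) and Nphp4 (20.2-fold). None was found either in those of the masked wide peaks nearest to 5730522E02Rik (85.5-fold), 1700066M21Rik (27.2-fold), Arid1b (26.2-fold) and Zfp608 (21.7-fold). Over all wide desert peaks the core was at 36 of 132 summits (27.3%, 20.4 to 35.4%), against 23.1% of side windows (18.4 to 28.6%), and these intervals overlap.

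Desert peaks stood mostly alone. Another CHOP peak was within 12500 bp of 106 desert peaks (9.05%, 7.54 to 10.8%), against 23.6% at 10 to 100 kb and 33.4% of all peaks. By the distance rule, no peak within 1 kb of a coding start can be that near to a desert summit. Peaks of that kind number 6306 of 14157 and count as neighbours elsewhere, so the contrast is partly set by the rule. The desert peaks formed 49 groups of 2 or more, with 105 peaks, and 5 groups of 3 or more, with 17 peaks. The nearest protein-coding genes numbered 809, of which 562 had 1 desert peak, 235 had 2 to 4 and 12 had 5 or more.

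Myc, the growth-promoting transcription factor whose flanking desert is known to hold distant enhancers, was nearest to 7 desert peaks, as was Mycn. The 7 Myc peaks lay 341 to 582 kb downstream of it, in the flank that also holds the noncoding gene Pvt1, and had folds of 6.0 to 19.5. A group of 4 within 21.8 kb, at chr15:62328585-62350390, had 9.82-fold with the element, 6.0-fold, 10.5-fold and 15.7-fold in order of position. The strongest, at chr15:62569346-62569877, had 25 reads, 19.5-fold (12.9 to 28.4) and the element. Of the 7 summits, 1 was masked. The 7 Mycn peaks lay 115 to 329 kb away on both sides of the gene at 5.25 to 9.0-fold, 1 of them with the element, and 1 was 154 bp from the start of 3732407C23Rik.

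Ppp1r3b, which encodes the hepatic subunit that targets protein phosphatase 1 to glycogen, was nearest to a group of 4 peaks over 7.56 kb at chr8:35206422-35213977, 162 to 169 kb upstream. Their folds were 6.0 (2.86 to 11.6), 17.9 (11.7 to 26.3) with the element, 14.2 (8.75 to 22.1) and 10.5 (5.94 to 17.4), on 7 to 24 reads. Tbx3, a T-box factor of liver development, was nearest to 5 peaks between 282 and 414 kb, at 5.78 to 13.0-fold, the strongest with the element. The other groups of 3 or more were nearest to Zfp608 (3.76 to 10.5-fold), to Vmn1r238 (3.23 to 3.65-fold, on chromosome 18, 1 of 3 in repeated sequence) and to Smim15 (5.96 to 7.34-fold). The Vmn1r238 peaks had local backgrounds of 7.66 to 12.9 reads, against a median of 0.386 over the desert peaks. The Smim15 group is at the 5′ end of Zswim6, a gene annotated as a processed transcript in GENCODE M21 and as protein-coding in RefSeq. In order of position, the 3 summits of the group are 1260, 48 and 875 bp from the RefSeq start. By RefSeq the middle and last are thus promoter peaks, within 1 kb, and none of the 3 meets the desert rule.

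**Figure D5:**
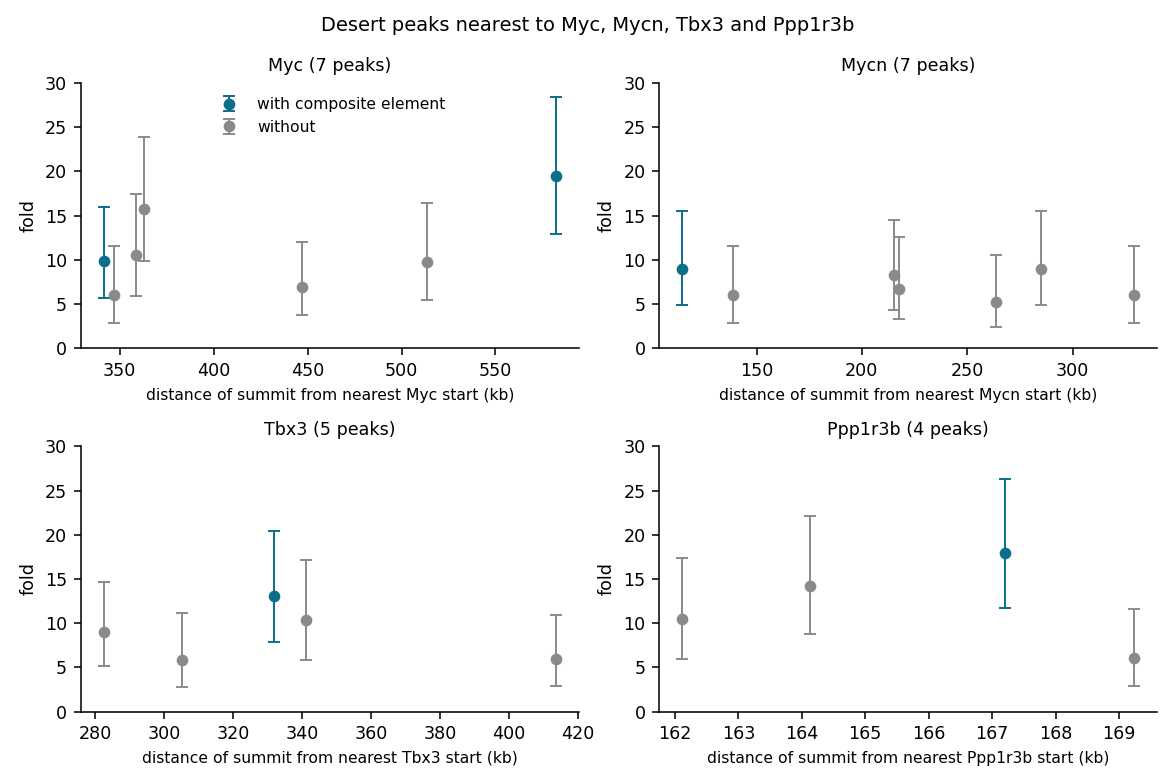
Fold of each desert peak nearest to Myc, Mycn, Tbx3 and Ppp1r3b against the absolute distance of its summit from the nearest start of that gene, with exact Poisson intervals. Blue points hold the composite element: it is at the strongest Myc, Tbx3 and Ppp1r3b peaks, at 19.5, 13.0 and 17.9-fold, and at 1 of the 2 Mycn peaks tied at 9.0-fold.

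Summits within 1 kb of a noncoding start numbered 47 (4.01%, 3.03 to 5.30%), against 7.09% at 10 to 100 kb and 9.68% of all peaks. The share of all peaks includes 1005 of the 6306 peaks within 1 kb of a coding start (15.9%), which the desert rule leaves out. The 47 desert summits were at 27 lincRNA, 8 TEC, 4 processed transcript, 3 miRNA, 3 misc_RNA, 1 antisense and 1 snoRNA starts. The lincRNA summits had a median fold of 5.89. A 976 bp wide peak lay at chr6:51270243-51271218, with its summit 777 bp from Mir148a, a miRNA abundant in liver. It had 47 reads and 28.9-fold (21.4 to 38.2). It is nearest to Nfe2l3, at 162 kb, and RefSeq places a predicted coding gene start 9885 bp away. The other 4 of highest fold were compact: beside Rn7s6 described above, they lay 42 bp from the snoRNA Gm22347 (52.5-fold), 688 bp from 1700063I16Rik (35.5-fold) and 36 bp from the misc_RNA Gm23153 (35.2-fold). The last is nearest to Prox1, at 312 kb. The 3 widest desert peaks were this Mir148a peak, a 1206 bp peak near Zfat, 308 bp from a lincRNA start (8.23-fold), and a 1815 bp peak near Tcp10c with a masked summit (10.7-fold).

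The nearest genes were compared with 6 gene lists by count. Endoplasmic reticulum stress genes were nearest to 1 desert peak (0.0854%, 0.0151 to 0.482%), against 18 (0.925%) at 10 to 100 kb and 65 (0.459%) of all. That peak lay 434 kb from Dnajb9, a co-chaperone of BiP, with 5 reads and 3.93-fold (1.72 to 8.29). Hepatocyte transcription factors were nearest to 15 desert peaks (1.28%, 0.778 to 2.1%), against 0.771% at 10 to 100 kb and 0.558% of all. The strongest were compact and masked and had no listed C/EBP motif: Prox1 at 35.2-fold, Foxa2 at 27-fold and 137 kb, and Hnf4g at 20.2-fold. The fourth, at Tbx3, was compact and unmasked with the element. Tbx3 was nearest to 5 of the 15 peaks and is also in the developmental list, which counts the same 5 peaks. Developmental regulators were nearest to 61 desert peaks of 30 genes (5.21%, 4.08 to 6.63%), against 16 (0.822%) at 10 to 100 kb and 1.05% of all, and adhesion and synaptic genes to 72 of 38 genes (6.15%, 4.91 to 7.67%), against 4 (0.206%) and 0.939%. The median fold was 7.29 for the peaks of hepatocyte factors, 7.0 for developmental regulators and 6.15 for adhesion genes, beside 6.14 for all desert peaks. The developmental and adhesion lists hold genes known to border large deserts. For none of the lists, hepatocyte factors included, was the count set against the length of the deserts its genes border. Cytochrome P450 and other clustered liver families were nearest to 1 desert peak (0.0854%), near the oxysterol hydroxylase gene Cyp7b1, at 445 kb and 6.75-fold with the element, against 33 (1.70%) at 10 to 100 kb and 104 (0.735%) of all. Olfactory and other clustered receptor families were nearest to 7 desert peaks (0.598%), against 26 (1.34%) at 10 to 100 kb and 64 (0.452%) of all.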

How the data were processed

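The data are the peak list of 1 CHOP immunoprecipitate from pooled livers. The input library was not read here and enters only through the authors' fold, p and q, from which the local backgrounds were solved. Bowtie placed the reads on mm10 with no more than 2 mismatches, keeping at most 2 reads for each position and strand. SAMtools 1.9 and Sambamba 0.7.1 did the filtering, and MACS2 2.1.2 called the peaks with its defaults. All these steps are per the labels' protocols. Bowtie's version was not found in the labels.

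The deposited fold enrichment of a peak equals the ratio of its pileup plus 1 to the local background plus 1. Its p and q were deposited by the authors as −log10 values. A deposited score, within 1 of 10 times −log10 q in all 14157 peaks, was not used further. Summit positions came from the deposited offsets. Folds are the authors' values and describe peaks within this list.

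Pileup and background were solved from fold and −log10 p as MACS2 defines them, giving a whole number of reads for all 14157 peaks (largest residual 3.13e-05). Total library depth is unknown. Intervals of folds are Poisson intervals on the reads over a fixed background; reads have no molecular identifiers. Genes were those of GENCODE M21, checked against RefSeq; sequence, soft-masking and 32-base word counts came from RefSeq's GRCm38.p6. Motifs were searched on both strands within 50 bp of the summit and 500 bp to each side. The sequences of masked summits without a listed motif are not reported here. Windows of 301 bp were aligned to each other with blastn 2.17.0. The solver and the motif search were checked on simulated data. The scripts ran in Python 3.11.15 with scipy 1.17.1, pandas 2.3.3, matplotlib 3.10.9 and numpy 2.4.6.

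The members and gene lists were chosen with earlier results of these data known. Named peaks are the 10 of highest fold, the 5 of highest fold with the composite element, the 5 of highest fold at noncoding starts, the 3 widest, the 5 farthest, the 3 nearest to the limit on each side, groups of 3 or more, and up to 5 per list nearest to stress genes or hepatocyte factors; others are said to be chosen afterwards. With 1 library, no test was made. Alternatives changed the distance limit, the gene set, the peak threshold, the motif window and the peaks kept.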

Additional observations from a re-analysis of the deposited data

How the results depend on the processing

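Of 130 values recomputed under alternatives, 72 stayed within their interval or within 1.5 times the count and 58 moved. No paired analysis was possible because there was 1 immunoprecipitated library. Using peak midpoints moved nothing. With a limit of 50 kb there were 1753 peaks, just within 1.5 times the count and so not among the values that moved. Their median fold was 6.37, the median width 206 bp, the density 1.62 per Mb, the repeated share 17.0%, and 211 peaks had a neighbour. With 200 kb there were 704 peaks, a width of 176.5 bp, 1.16 per Mb, a composite share of 6.25% and 47 with a neighbour. With starts of all annotated genes there were 199 peaks, with a median fold of 6.45, 181 bp, 1.10 per Mb, 58.3% masked, 24.1% repeated, 24.1% with a C/EBP core, 0 at noncoding starts by construction and 19 with a neighbour.

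With −log10 q of at least 5 there were 754 peaks at a median of 7.5-fold, 266.5 bp and 11 reads, with 9.95% at 20-fold or more, 0.875 per Mb, 56.8% masked, 30.9% compact, 9.42% with the composite and 52 with a neighbour. With a fold of at least 5 the medians were 6.75-fold, 215.5 bp and 10 reads, with 8.01% at 20-fold or more, 1.09 per Mb, 55.6% masked and 26.1% compact. Without repeated sequence the density was 1.10 per Mb and 43.4% were masked. Without masked summits there were 555 peaks, with 2.88% at 20-fold or more, 0.644 per Mb, 3.78% repeated, 12.8% compact, 13.3% with the composite, 25.4% with the core, 6.13% at noncoding starts and 45 with a neighbour. Without compact peaks the width was 173 bp, 1.64% were at 20-fold or more, 1.06 per Mb remained and 47.2% were masked. A motif window of 25 bp gave 4.87% composite, 9.91% core and 0.512% AP-1, and one of 100 bp gave 11.1%, 38.9% and 3.50%. Within 50 kb, 270 desert peaks had a neighbour. Shares that an alternative sets to 0 by its own construction were left out, except that at noncoding starts. The median −log10 q was 5.88, in place of fold. With 1 library of unstated depth, the median peak rested on 9 reads.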
